A study of Mus musculus with 12 samples.

Results

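Ribosome biogenesis and nucleolar factors were examined as a set of 32 named genes in cultured mouse hepatic stellate cells, the liver cells that store vitamin A and turn into scar-forming myofibroblasts after injury. Its members were listed by gene symbol and known role, with no threshold on any array value, though with earlier results of these data known. The platform annotation listed a probe for 30 of the 32 genes, and 25 had a probe above background on at least 3 of the 12 arrays, out of 13295 genes measured. The values reported are log2 intensities after background correction and quantile normalization, and where several probes of a gene were kept the one with the highest mean was used.

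The cells came from mice carrying a floxed gene for the β-PDGF receptor (β-PDGFR fl/fl, 129S4/SvJae background, crossed to an FVB line with the GFAP Cre transgene). Cre-positive animals are called knockout and Cre-negative animals, which carry the same floxed alleles, are called wild type. Both kinds of culture were grown in medium with serum and then kept in serum-free medium with albumin vehicle, either alone or with the ligand PDGF-B at 10 ng/ml, which gave 4 groups of 3 arrays. Each title holds a code (P11, P393 and P530 for wild type, P524, P338 and P522 for knockout) shared by 1 array with and 1 array without ligand, so that the 12 arrays form 6 pairs, called preparations here. The labels give neither the age of the mice nor whether preparations were separate animals, pools or cultures. All p-values reported therefore rest only on spread among these arrays, between or within preparations depending on the fit. Some of that spread may be technical. Excision depends on the GFAP promoter being active in the cell.

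Ribosomes are assembled in the nucleolus. RNA polymerase I makes a long precursor RNA, small nucleolar ribonucleoproteins (snoRNPs) modify it, and a series of assembly factors cut, fold and export the precursors of the small and large subunits. Growth factor signals such as PDGF are known to raise this output in dividing cells through Myc and the mTOR pathway, and many of the genes below are known Myc targets.

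The promoters of the set are shown first, because the E-box CACGTG is the sequence that Myc and its partner Max bind. RefSeq promoters (build GRCm38.p6) were at hand for 27 of the 32 genes, and the 250 bases before each start were searched on both strands. CACGTG, which reads the same on both strands, was found for 2 of the 27 genes, a share of 7.41%, against 6.86% of all 27025 genes with a promoter in the table. After these sequences had been read, a second motif was searched, CGGAAG or its reverse complement CTTCCG, a core that factors of the ETS family are known to recognise. It was found for 11 of the 27 genes (40.7%) against 15.3% of all genes and 26.0% of the genes whose promoters were at least as rich in G and C as the median promoter of the set, 57.6%. The 2 motifs do not overlap each other in the stretches printed. Nop2 held both motifs, Imp4 the E-box, Ddx21, Gar1 and Nhp2 the second core, and Nop56 and Nop10, whose changes are described below, held neither. Each stretch is 70 bases long, is written 5′ to 3′ on the strand of the gene, ends at or before the base preceding the start, and has the motifs in capitals.
Nop2 (chr6:125131813-125131882, + strand): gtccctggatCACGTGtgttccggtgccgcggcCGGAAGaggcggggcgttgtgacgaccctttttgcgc
Imp4 (chr1:34439673-34439742, + strand): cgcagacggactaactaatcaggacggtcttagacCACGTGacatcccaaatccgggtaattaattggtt
Ddx21 (chr10:62602299-62602368, - strand): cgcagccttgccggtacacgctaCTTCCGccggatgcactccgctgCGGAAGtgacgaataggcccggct
Gar1 (chr3:129831397-129831466, - strand): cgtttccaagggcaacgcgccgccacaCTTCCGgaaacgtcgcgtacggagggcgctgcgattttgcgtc
Nhp2 (chr11:51619703-51619772, + strand): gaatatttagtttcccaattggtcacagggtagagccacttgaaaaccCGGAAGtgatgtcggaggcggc
Nop56 (chr2:130274342-130274411, + strand): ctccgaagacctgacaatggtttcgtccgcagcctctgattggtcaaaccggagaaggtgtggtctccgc
Nop10 (chr2:112261856-112261925, + strand): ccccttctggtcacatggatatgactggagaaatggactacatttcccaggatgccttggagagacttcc

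Median probe intensity ran from 86.2 to 96.2 over the arrays, and the share of the 45281 probes above background from 45.1% to 53.4%. Of the genes with a probe, Wdr12, Nop16, Dkc1 and Bysl were above background on no array and Utp20 on 1, and they were not tested. Fbl and Npm3 had no listed probe and were not analysed here. Of the 25 genes kept, 24 were above background on all 12 arrays and Nolc1 on 11. Of 12 stellate and myofibroblast markers 11 were kept, though not all of these were above background on every array. The summed intensity of this list ran from 23596 to 37062 over the arrays. Macrophage markers were also bright, and their sum was lowest in preparation P524 (24140) and lay between 38341 and 44469 in the other 5. Mesothelial markers summed to 2240 in P522 and to 15718 in P524, with the other 4 between. Of 8 hepatocyte markers 2 were kept, none of them above background on all arrays, and Alb, Apoa1, Apoa2 and Cyp2e1 were above background on no array. In arrays of whole cultures, fewer cells of a type and less RNA per cell cannot be told apart. The receptor gene itself does not check the labels: Pdgfrb was 7.09 ± 0.52 (SD, n = 3 preparations) in wild type and 7.06 ± 0.60 (SD, n = 3 preparations) in knockout, and where its probe lies relative to the deleted part is not known here.

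The first comparison asked how the set responded to PDGF-B. None of the 25 genes passed the test in either genotype or averaged over both. By limma with Benjamini-Hochberg adjustment over all 13295 genes, 0 of 25 were called after ligand in wild type, where 0% of all genes were called, and 0 of 25 in knockout, where again 0% were. At an unadjusted p under 0.05 no gene of the set stood out in wild type (0.293% of all genes were higher and 0.293% lower), and Bop1 (higher) and Nop10 (lower) did in knockout (0.466% of all genes were higher and 0.542% lower). With preparation as a block, which takes out the differences between pairs, Nhp2 and Rrp12 were higher at that p in wild type (2.29% of all genes were higher and 2.42% lower), and Bop1 and Nop56 were higher and Nop10 lower in knockout (3.15% higher and 3.09% lower of all genes). Averaged over genotypes the block gave Bop1, Nop56, Rrp9 and Rrp12 as higher (3.37% of all genes) and none as lower (2.93%), and none of these passed the adjusted test. The median difference of the set was 0.06 in wild type, with 18 of 25 genes above 0, and 0.07 in knockout, with 20 of 25 above 0, while 49.1% and 49.0% of all genes were above 0 in the same comparisons. When each array was scaled to a common median instead, these medians were 0.03 and 0.01, beside -0.02 and -0.03 for all genes. The wild-type median fell to 0.0056 without the P530 array with ligand and 0.0057 without the P393 array without it, and was 0.135 without the P11 array without ligand.

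The pairs did not go the same way. The median change of the set was 0.15 in P393, 0.15 in P530, 0.06 in P524, 0.08 in P338 and 0.08 in P522, and it was -0.10 in P11, where only 7 of 25 genes were above 0. Under median scaling the set's median was 0.07 in P11, -0.09 in P530 and -0.02 in P522, but the median of all genes shifted too, by 0.09, -0.12 and -0.05, and relative to all genes the set stayed at -0.03, 0.03 and 0.04. Higher after ligand in P393 and P530 and lower in P11 were 14 of 25 genes, a pattern that 16% of all genes showed. Higher in all 3 knockout pairs were 12 of 25, against 15.2% of all genes. With the probe used for each gene, Bop1, Rrp12 and Nob1 were higher in all 6 pairs, as were 1.75% of all genes. Under median scaling, relative to the median of all genes, these 3 counts became 11, 8 and 2, with Bop1 dropping out of the last, against 21%, 15.8% and 1.74% of all genes.

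**Figure D1:**
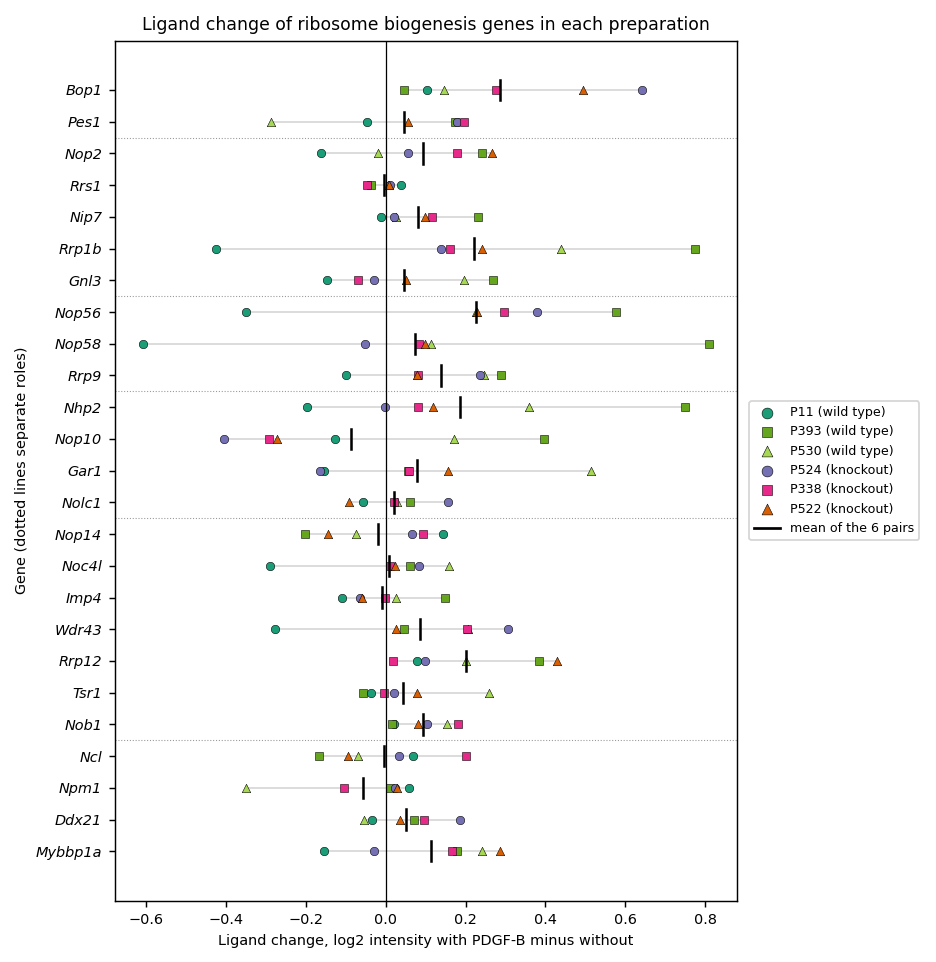
Ligand change of each of the 25 genes in each of the 6 preparations, as log2 intensity with PDGF-B minus without; each symbol is 1 pair of arrays, the black bar is the mean of the 6 pairs, and dotted lines separate the roles. Preparation P11 lies at the low end for many genes (set median -0.10, and -0.03 relative to all genes under median scaling), and the Bop1 symbols of the 3 knockout pairs (0.28 to 0.64) lie right of those of the 3 wild-type pairs (0.05 to 0.15), an order that median scaling changed (P11 at 0.31, P338 at 0.20).

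Bop1 and Pes1 form the PeBoW complex with Wdr12, which is needed to mature the RNA of the large subunit. Without ligand Bop1 was 8.53 in P524, 8.55 in P338 and 8.86 in P522, and with ligand it was 9.18, 8.83 and 9.35. In wild type it was 8.71 in P11, 8.63 in P393 and 9.11 in P530 without ligand, and 8.82, 8.68 and 9.26 with it. Each knockout pair thus showed a larger Bop1 change than any wild-type pair, although the knockout arrays with and without ligand overlapped in level. Under median scaling this order did not hold, with 0.31 in P11, 0.02 in P393 and -0.14 in P530 against 0.65, 0.20 and 0.36 in P524, P338 and P522; relative to all genes it held narrowly, with 0.22 in P11 and 0.24 in P338. The knockout difference was 0.47 ± 0.19 (SE, n = 3 per group) and the wild-type difference 0.10 ± 0.19 (SE, n = 3 per group), both with limma's adjusted p = 0.9999. With preparation as a block the knockout difference had a 95% interval of 0.31 to 0.64 and an adjusted p = 0.346, and the difference between genotypes, 0.37, an interval of 0.14 to 0.61 and an adjusted p = 0.999. A second, dimmer Bop1 probe with a mean level of 5.93 showed a mean ligand change of -0.02. Pes1, the partner, differed by 0.18, 0.20 and 0.06 in the knockout pairs and by -0.05, 0.17 and -0.29 in P11, P393 and P530, so the wild-type pairs of the 2 genes did not run together.

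The other assembly factors of the large subunit were Nop2, an RNA methyltransferase, Rrs1 and Nip7, which are needed for large-subunit maturation, Rrp1b, a nucleolar protein, and Gnl3 (nucleostemin), a nucleolar GTPase of dividing cells. Rrp1b had the widest spread. With ligand it differed by -0.42 in P11, 0.77 in P393 and 0.44 in P530, and by 0.14, 0.16 and 0.24 in P524, P338 and P522. In wild-type cells without ligand it was 8.01 in P11, 7.10 in P393 and 7.41 in P530, and with ligand it was 7.58, 7.88 and 7.85. P11 was thus the highest wild-type array before ligand and the lowest after it. The wild-type difference was 0.26 ± 0.32 (SE, n = 3 per group). Nop2 was higher in all 3 knockout pairs, by 0.06, 0.18 and 0.27, and lower in P11, by -0.16. Its other kept probes differed in P11, by 0.14 for the one with a mean level of 6.60 and by -0.08 for the one at 6.57. The difference of Nip7 averaged over all pairs was 0.08, that of Gnl3 0.05 and that of Rrs1 0.00, and Rrs1 lay close to background, between 5.99 and 6.08 on all arrays.

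Nop56 and Nop58 are the paired core proteins of the box C/D snoRNPs, in which the methyltransferase fibrillarin (Fbl) modifies ribosomal RNA. Without ligand Nop56 was 8.57 in P11, 7.72 in P393 and 8.14 in P530, and with ligand 8.22, 8.30 and 8.36. In knockout it was 8.01 in P524, 7.79 in P338 and 8.33 in P522 without ligand, and 8.39, 8.09 and 8.56 with it. Nop56 was higher in 5 of 6 pairs, by 0.23 to 0.58, and lower by -0.35 in P11; under median scaling P530 turned to -0.05, or 0.07 relative to all genes. The averaged difference was 0.23 ± 0.15 (SE, 6 arrays each), with limma's adjusted p = 0.99995 and, with the block, an interval of 0.02 to 0.44 and an adjusted p = 0.745. Nop58 followed the same order in wild type, with -0.61 in P11, 0.81 in P393 and 0.11 in P530 (-0.17 under median scaling, or -0.05 relative to all genes), but stayed within -0.05 to 0.10 in knockout. Rrp9, a protein of the U3 snoRNP that guides early cuts for the small subunit, was higher in 5 of 6 pairs, with a mean change of 0.14.

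The box H/ACA snoRNPs, which turn uridines of ribosomal RNA into pseudouridines, gave 4 genes. Nop10, a small structural subunit, had the lowest ligand difference of the set in knockout. In knockout cells it was 10.73 in P524, 10.47 in P338 and 10.67 in P522 without ligand, and 10.33, 10.18 and 10.40 with it, so that the 2 groups did not overlap, though they did under median scaling. In wild type it was 10.61 in P11, 10.18 in P393 and 10.13 in P530 without ligand, and 10.48, 10.58 and 10.30 with it. The groups without overlap held 1 gene of the set in the lower direction, where 2.07% of all genes were such. The knockout difference was -0.32 ± 0.13 (SE, n = 3 per group) and the wild-type difference 0.15 ± 0.13 (SE, n = 3 per group), both with limma's adjusted p = 0.9999. The difference between genotypes in the response was -0.47 ± 0.19 (SE), again with a limma adjusted p = 0.99999, in a comparison that called 0% of all genes. Over 27 other settings of the processing and the fit this difference kept its sign, from -0.62 to -0.32, and in none did it pass the test. A second, dimmer Nop10 probe, with a mean level of 6.19, was not lower in all knockout pairs. It differed by -0.16, 0.03 and -0.08 in P524, P338 and P522, and by 0.15, 0.20 and -0.07 in P11, P393 and P530.

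Nhp2, another core subunit of the same particle, was not lower with ligand in all knockout pairs as Nop10 was, but the genotype difference in its response, -0.24, had the same sign as that of Nop10, also over the 27 other settings (-0.49 to -0.02). It was 9.30 in P11, 8.87 in P393 and 8.96 in P530 without ligand, and 9.10, 9.62 and 9.32 with it, a wild-type difference of 0.30 ± 0.21 (SE, n = 3 per group). In knockout it was 9.53, 8.88 and 9.22 without ligand in P524, P338 and P522, and 9.53, 8.96 and 9.34 with it. P11 again ran opposite to the other wild-type pairs (under median scaling it was at 0.04, or -0.05 relative to all genes), and P524 differed by less than 0.01. A second, dimmer Nhp2 probe had a mean level of 5.99 and did not show these patterns. Its ligand changes were 0.03, 0.09 and -0.07 in P11, P393 and P530, and 0.01, 0.01 and 0.05 in P524, P338 and P522. Gar1, which binds the same particle, had a mean change of 0.14 in wild type, set mostly by 0.51 in P530, and of 0.02 in knockout. A second, dimmer Gar1 probe had a mean level of 6.43. It differed by -0.31, 0.08 and 0.02 in P11, P393 and P530, and by 0.01, -0.08 and -0.12 in P524, P338 and P522. Nolc1, a chaperone of snoRNPs, lay near background between 5.91 and 6.14. Dkc1, the pseudouridine synthase of this particle, was not above background.

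**Figure D2:**
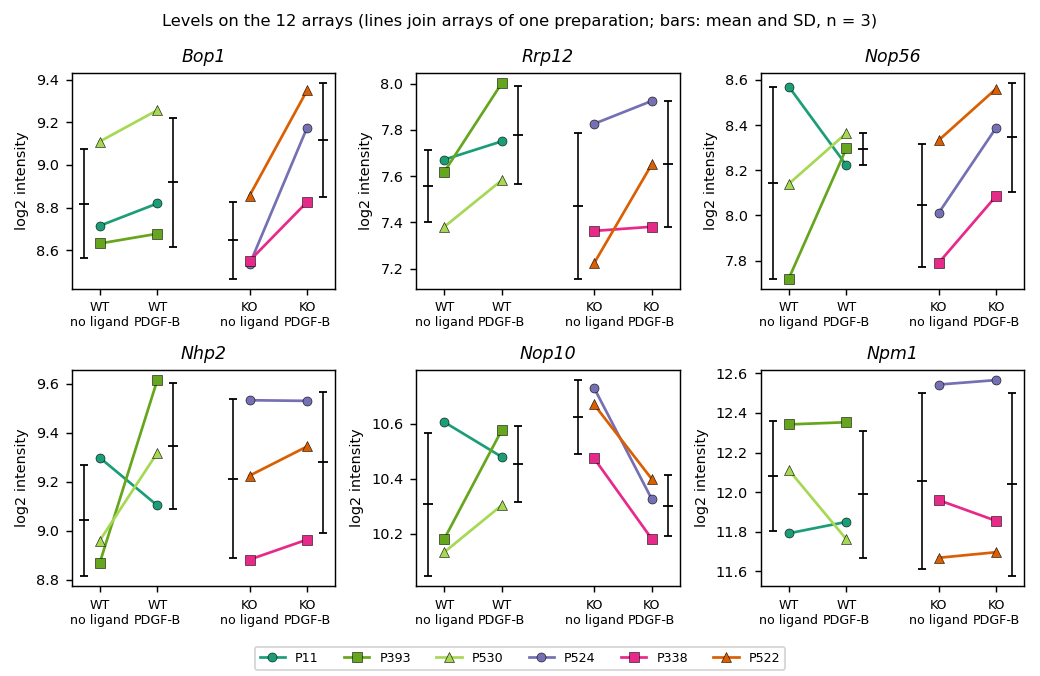
Log2 intensity of 6 genes on each of the 12 arrays; lines join the arrays of 1 preparation, and black bars give the mean and SD of each group (n = 3). Bop1 is higher with ligand on all 6 lines (under median scaling P530 turns to -0.14), Nop10 is lower on the 3 knockout lines (differences of -0.40 to -0.27), Nop56 and Nhp2 are lower with ligand in P11 and higher in P393 and P530 (under median scaling Nop56 turns to -0.05 in P530 and Nhp2 to 0.04 in P11), and the lines of Npm1 lie further apart than they slope.

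The genes of the small subunit were 7. Rrp12, which in yeast serves in export of ribosomal subunits, was higher in all 6 pairs, by 0.08, 0.38 and 0.20 in P11, P393 and P530 and by 0.10, 0.02 and 0.43 in P524, P338 and P522 (under median scaling P530 was at -0.02 and P338 at -0.04, and at 0.10 and 0.01 relative to all genes). Its averaged difference was 0.20 ± 0.13 (SE, 6 arrays each), with limma's adjusted p = 0.99995 and, with the block, an interval of 0.06 to 0.34 and an adjusted p = 0.651. Nob1, the nuclease that makes the last cut of the small-subunit RNA, was also higher in all 6 pairs, but by no more than 0.18, and under median scaling, relative to all genes, by 0.02 to 0.15. A second Nob1 probe had a mean level of 7.53, beside 7.87 for the probe used. It was lower with ligand in P530 (-0.21) and P338 (-0.18), and its mean change was 0.02. Wdr43, a protein of the early processome, was 7.34, 7.36 and 7.56 in P524, P338 and P522 without ligand and 7.65, 7.56 and 7.58 with it. The 2 knockout groups of Wdr43 did not overlap, as was so in the higher direction for 2.34% of all genes, but by a margin of less than 0.01, and they overlapped under median scaling and in the authors' normalized values, where P522 differed by -0.07 and 0.01. In wild type Wdr43 differed by -0.28, 0.04 and 0.21. Nop14 and Noc4l, which bind each other in yeast, had averaged differences of -0.02 and 0.01, Imp4, a protein of the U3 snoRNP, -0.01, and Tsr1, a factor of late small-subunit maturation, 0.04.

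Among the nucleolar chaperones and regulators, nucleolin (Ncl) had an averaged difference of 0.00, with a 95% interval of -0.13 to 0.13, and nucleophosmin (Npm1), a histone and ribosomal protein chaperone, -0.06, with an interval of -0.50 to 0.39. With preparation as a block these intervals were -0.12 to 0.11 and -0.19 to 0.07. The RNA helicase Ddx21 and Mybbp1a, a nucleolar regulator of transcription, had averaged differences of 0.05 and 0.11.

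The next comparison asked how the set differed between the genotypes. No gene was called by limma between knockout and wild type, 0 of 25 without ligand, where 0.00752% of all genes were called, and 0 of 25 with ligand, where 0.015% were. At an unadjusted p under 0.05 Nop10 was the only gene of the set without ligand (higher, beside 1.51% higher and 0.737% lower of all genes), and with ligand there was none (0.94% higher and 0.527% lower of all genes). With preparation as a random block 0 of 25 genes reached that p in either comparison, Nop10 included (1.14% higher and 0.624% lower of all genes without ligand, 0.7% and 0.481% with it). The median of the set was 0.01 in both comparisons, beside 0.01 for all genes, but its sign changed with the setting. It was -0.11 without and -0.05 with ligand under array weights, -0.04 and -0.05 under median scaling (all genes at -0.02 and -0.03), -0.05 and -0.01 without P393, and 0.03 and 0.09 without P338. Nop10 was higher in knockout without ligand by 0.32 ± 0.13 (SE, n = 3 per group), a comparison that shares its knockout arrays with the ligand comparison above, and lower with ligand by -0.15 ± 0.13 (SE, n = 3 per group). Nop58 without ligand was 8.66, 8.67 and 8.82 in P524, P338 and P522 and 9.29, 8.92 and 8.88 in P11, P393 and P530. The Nop58 groups did not overlap, as in the lower direction for 2.47% of all genes, and the difference was -0.31 ± 0.23 (SE, n = 3 per group) with limma's adjusted p = 0.9995. The genotype difference in the ligand response had a median of 0.02 over the set and called 0 of 25 genes, where 0% of all genes were called. At an unadjusted p under 0.05 Nop10 alone of the set was lower and none was higher, beside 0.331% and 0.286% of all genes. With the block Nop10 was lower and Bop1 higher, beside 2.5% and 2.02% of all genes.

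Differences between preparations of one genotype were larger. By limma's F-test with preparation and ligand in the fit, 10 of 25 genes differed between preparations within a genotype, which is near the 45.6% of all genes that did. Among the wild-type preparations 5 of 25 differed, against 22.9% of all genes, and among the knockout preparations 12 of 25, against 42.1%. Preparation accounted for a median of 67.1% of a gene's sum of squares in the set and 75.7% in all genes, while ligand accounted for 4.29% and 1.96%. The preparation share was taken over the codes of both genotypes, so it includes the genotype share (medians of 4.72% and 5.17%). It also spans more degrees of freedom than the ligand share, so the sizes of these shares cannot be compared directly. P338 was the lowest preparation for 9 genes and P393 for 8, and P524 was the highest for 8 and P522 for 7. The matching shares over all genes were not taken. Genes of the set also ran together over the arrays, with a median correlation of 0.26 between genes, against 0.002 for all genes. These counts are therefore not separate observations.

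Npm1 was the clearest case. Its mean over both arrays was 12.55 in P524, 11.91 in P338 and 11.68 in P522, and 11.82 in P11, 12.35 in P393 and 11.94 in P530, a range of 1.83-fold with an adjusted p of 0.00017. The preparations P524 and P393, highest for Npm1, were also 2 of the 3 highest in the summed proliferation markers (4506 and 4108, with P338 at 4016 and the others at 2859 to 3005), and P524 was the lowest in macrophage markers. The part of these differences in the Npm1 level was not tested. Tsr1 was highest in P522 (7.32, knockout) and lowest in P393 (6.61, wild type), with an adjusted p of 0.00048 by the F-test between preparations within a genotype. A second Tsr1 probe of similar brightness put P524 highest (7.17) and P338 lowest (6.65), so the 2 probes gave different orders. Rrp1b ranged from 6.73 in P524 (knockout) to 7.79 in P11 (wild type), 2.09-fold, a range that includes the genotype. By the F-test within each genotype its adjusted p was 0.0079 among knockout and 0.563 among wild-type preparations. Its second probe ranged from 6.65 to 7.68 in the same preparations. The other 2 probes, with mean levels of 6.54 and 6.03, did not pass the F-test between preparations over all kept probes (adjusted p of 0.336 and 0.754).

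Npm1, Tsr1 and Nip7 kept an adjusted p under 0.05 in all 26 alternatives run for them. Bop1 lost it under median scaling (adjusted p of 0.0756), Rrp12 when P524 or its array without ligand was left out (up to 0.193), Imp4 when P522 or either of its arrays was left out (up to 0.113), and Rrp9 when P338, P530 or the array of either with ligand was (up to 0.0737). Nop14 lost it in 5 alternatives, Rrp1b in 10 and Gnl3 in 15. Both Rrp1b and Gnl3 lost it with no background correction, under median scaling and in the authors' normalized values, Rrp1b also with the mean of its kept probes and Gnl3 with no filter. The other losses came with arrays left out, for Rrp1b each time P524, P522 or one of their arrays was, and for Gnl3 also with P338 or a P530 array left out. The number called ranged from 6 without P522 to 19 without the P11 array with ligand. Nip7, Bop1 and Imp4 each had a dimmer second probe, with mean levels of 5.91, 5.93 and 7.88. These probes did not pass the F-test between preparations over all kept probes (adjusted p of 0.838, 0.306 and 0.0527).

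**Figure D3:**
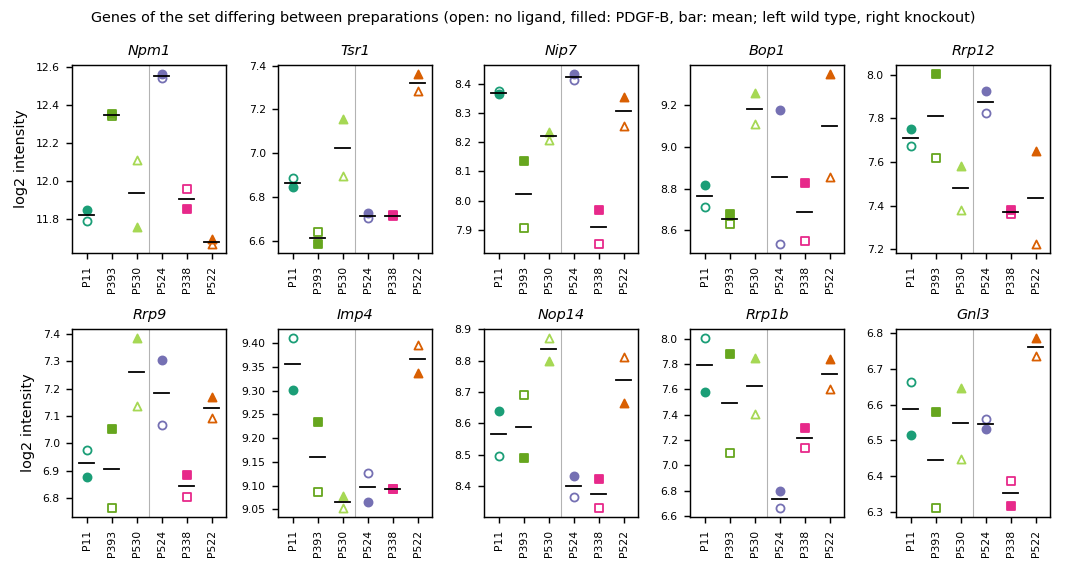
The 10 genes with an adjusted p under 0.05 between preparations, as log2 intensity on each array (open symbols without ligand, filled with PDGF-B, black bars the mean of the 2 arrays; wild type left and knockout right of the grey line). The order of the preparations differs from gene to gene: P524 is highest for Npm1 (12.55) and lowest for Rrp1b (6.73).

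The wider pathway was read from lists of further genes. Among other small-subunit factors 33 of 40 were measured and among other large-subunit factors 37 of 40, and 0 of each were called after ligand in either genotype. Averaged over genotypes 24 of 33 and 29 of 37 were above 0, with medians of 0.03 and 0.06, beside 48.3% of all genes above 0. Wdr75, a processome protein, was higher in 6 of 6 pairs with an averaged difference of 0.20 ± 0.08 (SE, 6 arrays each), and Lyar, a nucleolar protein of growing cells, in 6 of 6 with 0.17 ± 0.14 (SE, 6 arrays each). Ppan, a factor of the large subunit, was higher in 5 of 6 with 0.23 ± 0.15 (SE, 6 arrays each), and Nop53, which in yeast recruits the exosome, was lower in 5 of 6 with -0.13 ± 0.12 (SE, 6 arrays each). All 4 had limma's adjusted p = 0.99995. Of the RNA exosome 11 of 14 and of the RNA polymerase I machinery 12 of 14 genes were measured, with medians of 0.02 and 0.01, and 0 were called after ligand. In knockout against wild type with ligand 1 of the 12 was called, Twistnb, a subunit of RNA polymerase I, lower in knockout by -1.33 ± 0.14 (SE, n = 3 per group, limma's adjusted p = 0.0128), and without ligand its difference was -1.09 ± 0.14 (SE, n = 3 per group, adjusted p = 0.0788, and 0.0107 with the block). Twistnb had a mean level of 6.77, and no probe of it was above background on all 12 arrays. The stricter filter, which asks for that, therefore left it untested, and the size of its difference may be affected by background. Over 27 other settings the Twistnb difference with ligand stayed between -1.45 and -1.04, but it was called in 16 only. It lost the call under median scaling (adjusted p = 0.294), with only the groups compared (0.297), without P338, P11, P393 or P530 (0.158 to 0.391), and without the array with ligand of any preparation but P522 (0.066 to 0.124).

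The proteins of the finished ribosome lay on the other side of 0 from the assembly factors in knockout. Of 22 measured proteins of the large subunit 3 were above 0 after ligand in knockout, with a median of -0.06, and of 19 of the small subunit 4 were, with a median of -0.04. In wild type 18 of 22 and 13 of 19 were above 0, with medians of 0.08 and 0.05. The median of the large-subunit proteins was -0.07, -0.07 and -0.05 in P524, P338 and P522, where the biogenesis set was at 0.06, 0.08 and 0.08. Under median scaling, relative to all genes, the large-subunit proteins were at -0.13, -0.12 and -0.16 and the biogenesis set at 0.08, 0.06 and 0.04. No ribosomal protein gene was called in a ligand or genotype comparison, the gap between the lists was not tested, and the knockout arrays without ligand that enter it also enter the genotype comparison, in which the large-subunit proteins were higher in knockout by a median of 0.15 without ligand and 0.00 with it.

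**Figure D4:**
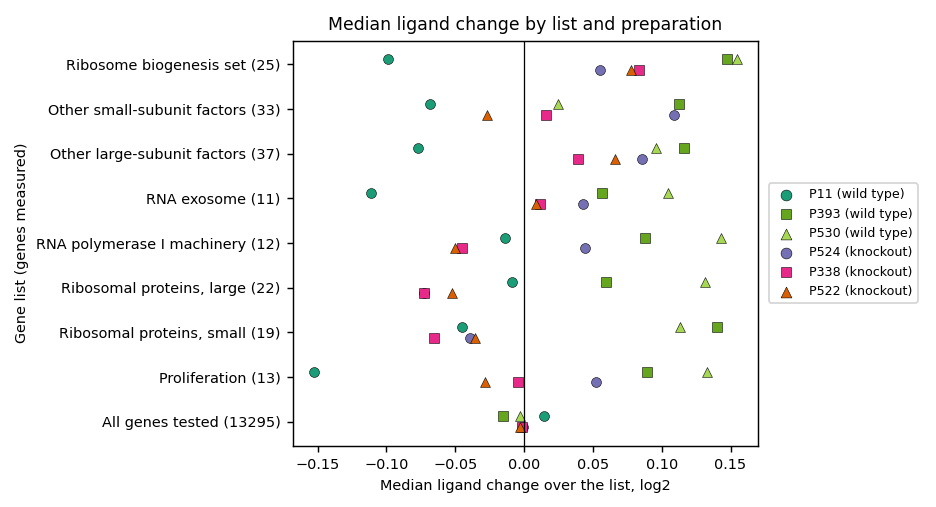
Median ligand change of each gene list in each preparation, on the log2 scale, with the number of genes measured in brackets (wild type above and knockout below in each row). The biogenesis set is right of 0 in the 3 knockout pairs (0.06 to 0.08), where both lists of ribosomal proteins are left of 0 (-0.07 to -0.04); under median scaling the set's median in P522 is -0.02, with all genes at -0.05.

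Myc itself lay near background, with a mean level of 6.10, and differed with ligand by -0.09, 0.13 and 0.01 in P11, P393 and P530 and by 0.01, -0.05 and -0.19 in P524, P338 and P522. Of 14 measured genes of the Myc network and nucleolar stress 0 were called after ligand, 3 being above 0 in wild type and 6 in knockout. Cdkn2a, whose Arf product binds nucleophosmin in the nucleolus, had the smallest p of this list between preparations, with an adjusted p of 1.11e-05. It was 7.96 and 7.77 in P11 without and with ligand, and 9.80 and 9.92 in P530. Averaged over the 6 pairs, the 9 measured genes with the CGGAAG core in their promoter were all above 0 (median 0.08) and 8 of the 12 without it were (median 0.05), in a split made after the sequences were read. In the whole set 19 of 25 were above 0, beside 48.3% of all genes. The share among all genes with the core was not taken, and a link with the motif was not tested.

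When preparation entered the fit as a block and P11 was left out, a setting chosen after the data had been seen, genes of the set were called. In wild type, with 2 pairs left, Rrp1b was higher by 0.61 ± 0.09 (SE, adjusted p = 0.0144) and Nhp2 by 0.55 ± 0.09 (SE, adjusted p = 0.026), where 0.587% of all genes were called higher and 0.549% lower. In knockout Bop1 was higher by 0.47 ± 0.07 (SE, adjusted p = 0.0341), where 0.165% of all genes were called higher. P11 is a wild-type preparation, so the knockout arrays and the Bop1 difference of 0.47 were the same as with all preparations. Only the estimate of the spread changed, and the call adds no new knockout data. Averaged over genotypes 4 of 25 were higher, namely Bop1, Rrp1b, Nop56 and Nhp2, where 1.03% of all genes were called higher and 0.669% lower. With any of the other 5 preparations left out in the same way 0 of 25 were called, as were 0 of 25 with the block and all 6 preparations.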

How the data were processed

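Total RNA was hybridised to single-colour Illumina arrays. The deposited intensity values used here are linear and precede normalization; the authors' normalized intensity served as an alternative, and how the authors made either table is not stated in the labels. No detection p-values were in the tables used here, so background was estimated from each array by mirroring its log2 values below the mode, and probes with p under 0.05 on at least 3 arrays were kept (26245). From the deposited intensity, log2 values were computed with normexp (offset 50) and quantile normalization in limma 3.58.1 under R 4.3.3, and group means were fitted to all 12 arrays (8 residual degrees of freedom) with lmFit and eBayes, adjusting by Benjamini-Hochberg over 13295 genes. The block fit had preparation as a term, or as a random effect (statmod 1.5.0) between genotypes. With preparation as a term, and in the F-test between preparations, p-values rest on the spread left within preparations (4 residual degrees of freedom). Arrays sharing a code deviated together from their group means (correlations of 0.585 to 0.930), so the codes pair the arrays. Genes to be named with values were chosen by role and by smallest p; the set and the lists were chosen with earlier results of these data known. Fits were tested on simulated data. The number of arrays limits precision.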

Additional observations from a re-analysis of the deposited data

How the results depend on the processing

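Apart from the block without P11, given below, no gene of the set was called in a ligand or genotype comparison under any alternative run (background correction, scaling, filter, probe choice, the fit and the arrays used); the paired analysis with a replicate block also called 0 of 25 in each, with all-gene counts of 0 after ligand in either genotype and 2 in each genotype comparison. The knockout ligand median of the set, 0.066, was 0.014 with median scaling, 0.045 with no filter, 0.045 with the mean of kept probes, 0.043 without the 6 genes whose other probe disagreed (chosen after seeing the data), and 0.025 to 0.138 with arrays or preparations left out (lowest without the P338 array without ligand, highest without the P338 array with ligand); with a replicate block and without P524 it was 0.091. The count of all genes called between genotypes without ligand, 1, was 2 with the mean of kept probes, the replicate block, the intensity trend with robust prior or array weights, and 0 to 3 with arrays or preparations left out. With ligand it was 2, and became 0 with median scaling or only the groups compared, 1 with the stricter filter, and 0 to 3 with arrays or preparations left out. Between preparations 10 genes of the set were called, 17 with array weights and 6 to 19 with arrays or preparations left out, and of all genes 6058, or 3660 to 6873 with arrays or preparations left out (lowest without P524). With the replicate block and without P11, 2, 1 and 4 genes of the set were called in wild type, in knockout and averaged, among 151, 22 and 226 of all genes; with the block and without P338, 1 gene was called in knockout. The causes were not tested. With 3 arrays per group, small changes could be missed, and the intervals given do not mark that limit. They are not adjusted for the number of genes tested, so a change whose interval excluded 0 could also go uncalled. Among the intervals given with the replicate block and all preparations, that was so for Bop1 in knockout and in the genotype difference of its ligand response. It was also so for Nop56 and Rrp12 averaged over genotypes. The other genes named above at an unadjusted p under 0.05 with that block were likewise not called.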
